A study of Mus musculus with 8 samples.

Results

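The oxidoreductases described here are the mouse enzymes of aldehydes, ketones and other carbonyls in 4 gene families: the aldehyde dehydrogenases (Aldh), the aldo-keto reductases (Akr), the alcohol dehydrogenases (Adh) and the carbonyl reductases (Cbr). Members were all protein-coding genes of the count table whose symbol begins with 1 of these family names followed by a digit. The rule found 48 of 55401 gene rows: 21 Aldh, 17 Akr, 6 Adh and 4 Cbr genes. It used names alone and no measured value.

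RNA was sequenced from 8 mouse libraries labelled as airway cells at day 10 after tamoxifen. The 4 mutant libraries had the genotype Scgb1a1cre; Cdh1F/F, and the 4 control libraries had the genotype Scgb1a1cre; Cdh1F/+. Both groups thus carried a Cre under the control of Scgb1a1, whose secreted product marks club cells, both received tamoxifen, and the controls also carried a floxed allele of Cdh1, which encodes E-cadherin. The series asked which genes change in airway cell types when Cdh1 is inactivated in club cells. Its text describes how immune and endothelial cells were depleted before EPCAM selection and GFP sorting. The labels do not say which sorted fraction, if any, a library holds. Ages are not given in the sources used here, and it is not stated whether each library is a separate animal, so that p-values reflect only the spread among these libraries, which may be technical.

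Aldehydes arise from lipid peroxidation, inhaled smoke, alcohol, retinol and amino acid breakdown, and they react with proteins and DNA. Aldehyde dehydrogenases oxidise them to acids with NAD or NADP, aldo-keto and carbonyl reductases reduce carbonyls to alcohols with NADPH, and alcohol dehydrogenases interconvert alcohols and aldehydes. Club cells of the mouse airway are known for a high content of such enzymes, and Cbr2, Aldh1a1 and Aldh3a1 are used as markers of these cells. Some members also act outside detoxification: Aldh1a1, Aldh1a2 and Aldh1a3 make retinoic acid from retinal, and several mitochondrial members catabolise amino acids.

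Total counts ran from 15111663 to 21673654 per library. Levels are given in CPM, counts relative to the total count of the library multiplied by a scaling factor (TMM). The factor ran from 0.9458 in control library 3 to 1.025 in mutant library 3. A count of 0 leaves room for up to 3 counts, or 0.138 to 0.199 CPM by library without that factor, a limit for counting error alone. Cdh1 itself stood at 406, 409.8, 401 and 396 CPM in mutant libraries 1 to 4, against 322, 428, 388 and 395 CPM in control libraries 1 to 4. A sum over the whole gene does not show the loss of floxed exons, so the labels were not checked by it. The libraries held RNA of several lung cell types: the summed level of 14 alveolar type II markers was 34048 to 44294 CPM in mutant and 30093 to 42286 CPM in control libraries, and that of 14 endothelial markers was 4776 to 5159 CPM in mutant and 5609 to 6973 CPM in control libraries. The 7 basal cell markers were low, with a summed level of 7.45 to 19.7 CPM in mutant and 8.47 to 19.8 CPM in control libraries. Epcam stood at 96 to 111 CPM in mutant and 57.8 to 73.7 CPM in control libraries. The endothelial gene Pecam1 stood higher, at 759.6 to 887 CPM in mutant and 1005 to 1369.5 CPM in control libraries. Endothelial RNA was thus present in every library, and the outcome of the described depletion and EPCAM selection was not tested. In bulk RNA of this kind, fewer cells of a type and less RNA per cell cannot be told apart.

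Of the 48 members, 37 passed the filter on low counts and were tested. In mutant libraries 7 of these were lower and 1 was higher than in control libraries (quasi-likelihood test of edgeR, threshold of 0.05 on p after Benjamini-Hochberg adjustment over all 16964 genes tested). Over all tested genes 2.36% were lower and 5.45% higher. The median log2 fold change of the tested members was -0.17, against -0.01 over all tested genes. The 7 lower members were Cbr2, Akr1c14, Aldh3a1, Aldh1a1, Aldh6a1, Aldh2 and Aldh1a7, and the higher member was Akr1b8. Of the tested members, 8 had no overlap between the groups, against a background of 16.8% of all tested genes, and 7 of these 8 were among the called members. The exceptions were Akr1c14, which was called although its groups overlapped, and Aldh16a1, whose groups did not overlap although it was not called.

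Without controls 1 and 4 the test called 15 members lower and 2 higher, and without controls 2 and 3 it called 5 lower and 1 higher. Without control 1, 10 members were lower and 2 higher. Calls over all genes moved in the same settings: 924 were higher and 401 lower with the 8 libraries, 3750 and 3338 without controls 1 and 4, 628 and 223 without controls 2 and 3, and 1517 and 1117 without control 1. Without controls 1 and 4 only controls 2 and 3 remained, the most alike pair of controls. Their chi-square per gene was 4.89, against 20.3 to 46.2 for the other pairs of controls. Members that gained a call in that setting, named below, did so along with the rise in calls over all genes. The calls of Cbr2, Aldh1a1, Aldh2, Aldh3a1, Aldh6a1 and Akr1b8 held in each of the 19 other settings tried.

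**Figure D1:**
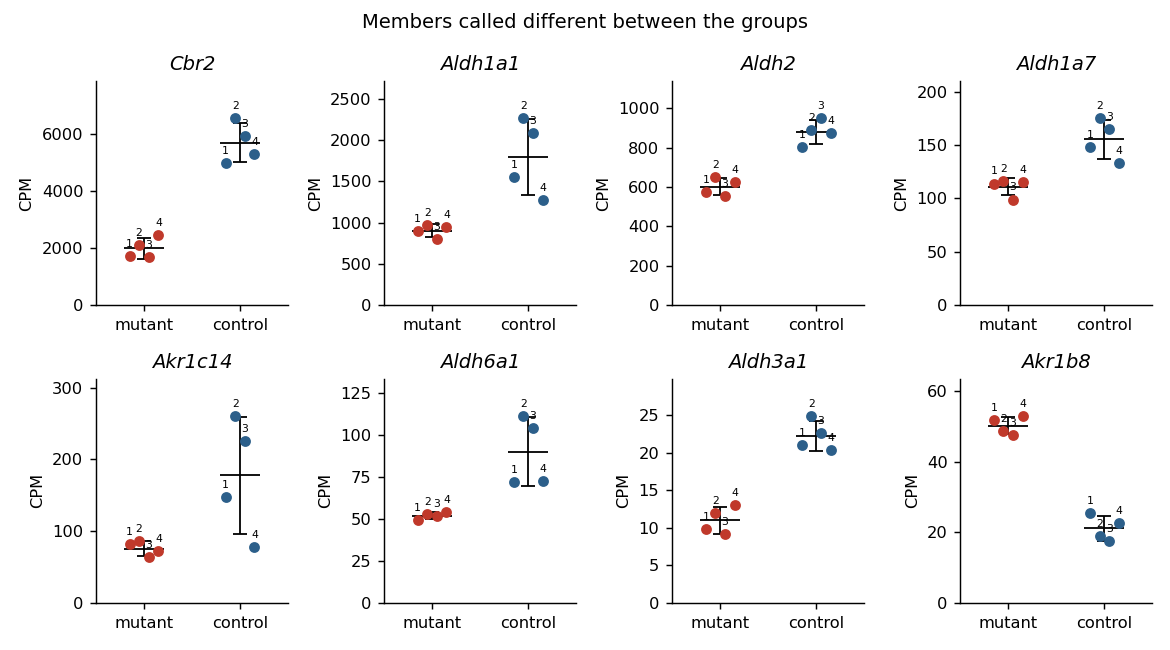
Level in CPM (vertical axis, from 0) of the 8 called members in each mutant and control library. Points are libraries with their replicate number, and the bar and whiskers are the mean and SD (n = 4 each); control library 4 lies among the mutant libraries for Akr1c14 at 78.1 CPM, and the groups are apart for the other members shown.

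Cbr2 (chromosome 11, 120729489 to 120732114, GRCm38) encodes a mitochondrial carbonyl reductase that is abundant in mouse lung. Its level was 1729, 2114, 1681 and 2450.0 CPM in mutant libraries 1 to 4, against 4984, 6530.1, 5911 and 5288 CPM in control libraries 1 to 4. Every mutant library lay below every control library, and mutant library 4 was the highest of its group. The gene was 2.85-fold lower, with a log2 fold change of -1.51 ± 0.14 (SE; edgeR, adjusted p = 0.000327). It was also the most abundant member per exon length in both groups, with 1502 ± 272 CPM per kb in mutant and 4279 ± 517 CPM per kb in control libraries (SD, n = 4 each). Of the summed CPM of all 48 members, Cbr2 took 34.9% to 42% in mutant libraries and 53.2% to 56.7% in control libraries.

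The other carbonyl reductases were not called. Cbr1 and Cbr3, short-chain reductases of quinones and other carbonyls that lie side by side on chromosome 16, averaged 40.0 and 14.3 CPM in mutant and 46.3 and 17 CPM in control libraries. Their ratios of mutant to control had 95% intervals from 0.724 to 1.03 and from 0.698 to 1.01. Both were called lower without controls 1 and 4, with log2 fold changes of -0.32 and -0.41, and Cbr1 also without control 1. Calls over all genes rose in both settings as well. Cbr4, whose product takes part in mitochondrial fatty acid synthesis, averaged 11.8 ± 1.15 CPM in mutant and 10.4 ± 0.777 CPM in control libraries (SD, n = 4 each).

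The promoter windows of Akr1b8, Cbr2 and Aldh1a1 are shown because they are the member called higher and the most abundant members called lower. They are RefSeq's sequences on GRCm38.p6, 250 bases before to 50 after the start site, printed 5′ to 3′ on the gene's own strand: Akr1b8 at chr6:34353896-34354195 on the plus strand, Cbr2 at chr11:120731972-120732271 on the minus strand and Aldh1a1 at chr19:20492333-20492632 on the plus strand. Capitals mark matches on either strand to any of 5 motifs, namely the antioxidant response element core TGACNNNGC, the AP-1 motif TGANTCA, the C/EBP motif TTGCNNAA, the FOXA motif TGTTTAC and the TATA box TATAAA.
Akr1b8: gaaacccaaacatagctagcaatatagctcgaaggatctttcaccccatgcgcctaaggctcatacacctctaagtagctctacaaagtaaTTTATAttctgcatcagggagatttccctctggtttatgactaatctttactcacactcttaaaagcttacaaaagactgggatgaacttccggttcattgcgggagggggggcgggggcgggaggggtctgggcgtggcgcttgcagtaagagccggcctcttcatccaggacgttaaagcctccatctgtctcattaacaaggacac
Cbr2: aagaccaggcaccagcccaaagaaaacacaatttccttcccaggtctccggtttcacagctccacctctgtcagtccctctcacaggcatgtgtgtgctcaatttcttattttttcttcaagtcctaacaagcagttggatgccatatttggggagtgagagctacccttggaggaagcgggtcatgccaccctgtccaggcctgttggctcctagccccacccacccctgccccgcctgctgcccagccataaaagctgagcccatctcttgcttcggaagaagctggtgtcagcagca
Aldh1a1: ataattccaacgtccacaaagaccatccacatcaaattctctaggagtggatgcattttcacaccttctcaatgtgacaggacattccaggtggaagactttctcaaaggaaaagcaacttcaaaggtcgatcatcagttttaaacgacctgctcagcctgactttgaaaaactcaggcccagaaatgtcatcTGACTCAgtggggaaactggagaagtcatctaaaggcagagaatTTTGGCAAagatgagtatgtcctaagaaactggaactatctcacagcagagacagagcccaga
Akr1b8 held a TATA box match on the reverse strand, Aldh1a1 held an AP-1 and a C/EBP match that did not overlap each other, and these letters were not found in the Cbr2 window. With 1 window per gene, the one nearest its annotated start, windows were matched for 39 of the 48 members. The antioxidant response element core occurred in 5 of the 39, namely Adh6a, Akr1c19, Akr1cl, Aldh1a2 and Aldh9a1, and in 12.4% of the 32851 promoter windows in the table. The AP-1 motif occurred in Adh7 and Aldh1a1 and in 7.81% of all windows, the C/EBP motif in 7 members and 10.8% of all windows, the FOXA motif in 5 members and 3.65%, and the TATA box in 5 members and 13.6%. A match describes the letters of the window only.

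Aldh1a1, Aldh1a7, Aldh1a2 and Aldh1a3 belong to the subfamily that includes the retinal dehydrogenases. Aldh1a1 (chromosome 19, 20492715 to 20643465) makes retinoic acid from retinal and also oxidises lipid-derived aldehydes. It had 894, 973, 799.9 and 945 CPM in mutant libraries 1 to 4, against 1551, 2264, 2091 and 1275 CPM in control libraries 1 to 4. The mutant libraries lay close together, while controls 2 and 3 were well above controls 1 and 4. The gene was 1.99-fold lower, with a log2 fold change of -0.99 ± 0.17 (SE; edgeR, adjusted p = 0.00825). Without controls 2 and 3 its log2 fold change was -0.64.

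Aldh1a7 (chromosome 19, 20692953 to 20727562) is the neighbouring rodent paralogue of Aldh1a1. Its level was 114, 116, 99 and 115 CPM in mutant libraries 1 to 4 and 148, 175, 165 and 133 CPM in control libraries 1 to 4. The groups did not overlap, and control 4 was again the lowest control. The gene was 1.40-fold lower, with a log2 fold change of -0.48 ± 0.10 (SE; edgeR, adjusted p = 0.0162). That call was lost without mutant library 1 (adjusted p = 0.0519) and without controls 2 and 3 (adjusted p = 0.0559). Coding sequences of Aldh1a1 and Aldh1a7 were 91.6% identical, with a longest identical run of 100 bases, so part of their reads may have been left out of both counts and their levels are uncertain.

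Aldh1a2 and Aldh1a3, which like Aldh1a1 make retinoic acid from retinal, had lower levels than Aldh1a1 and were not called. Aldh1a2, which supplies retinoic acid in the mesenchyme and mesothelium, averaged 27.2 CPM in mutant and 30.3 CPM in control libraries, with a 95% interval of the ratio from 0.705 to 1.15. Aldh1a3 stood at 15.4, 7.85, 4.09 and 3.67 CPM in mutant libraries 1 to 4 and at 5.68, 3.72, 3 and 2.2 CPM in control libraries 1 to 4. Mutant libraries 1 and 2 were above all controls, and mutant libraries 3 and 4 lay within the range of the controls. Its log2 fold change was 1.08 ± 0.48 (SE; edgeR, adjusted p = 0.196), and 0.50 without mutant library 1.

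Among other genes of retinoid handling, on a list of 36 of which 25 were tested, 4 were higher and 0 were lower in mutant libraries, with a median log2 fold change of -0.02. Over all tested genes 5.45% were higher and 2.36% lower. Rdh10, which oxidises retinol to retinal, averaged 40.1 ± 2.74 CPM in mutant and 30.2 ± 1.47 CPM in control libraries (SD, n = 4 each). The other 3 had low levels: the retinol dehydrogenase gene Dhrs9 averaged 4.10 CPM in mutant and 1.77 CPM in control libraries, the retinol uptake receptor gene Stra6 averaged 1.27 and 0.399 CPM in mutant and control libraries, and the retinol-binding protein gene Rbp2 averaged 1.25 and 0.305 CPM in mutant and control libraries. Their adjusted p lay between 0.00941 and 0.0362 (edgeR).

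Aldh2 (chromosome 5, 121566027 to 121593824), the mitochondrial enzyme of acetaldehyde, stood at 577, 649, 557 and 626 CPM in mutant libraries 1 to 4 and at 804, 888, 949 and 876 CPM in control libraries 1 to 4. The groups were apart and each was tight, with a largest-to-smallest ratio of 1.16 in mutant and 1.18 in control libraries. The gene was 1.46-fold lower, with a log2 fold change of -0.55 ± 0.08 (SE; edgeR, adjusted p = 0.00442).

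Aldh3a1 (chromosome 11, 61207537 to 61218421) oxidises aromatic and medium-chain aldehydes and is known as an abundant protein of the cornea. It had 9.84, 12, 9.19 and 13 CPM in mutant libraries 1 to 4, against 21, 24.9, 22.6 and 20.4 CPM in control libraries 1 to 4. No mutant library reached the level of a control. The gene was 2.01-fold lower, with a log2 fold change of -1.01 ± 0.13 (SE; edgeR, adjusted p = 0.00148). Its neighbour Aldh3a2, the fatty aldehyde dehydrogenase, averaged 131 ± 6.09 CPM in mutant and 162 ± 30.2 CPM in control libraries (SD, n = 4 each) and was not called (adjusted p = 0.147 by edgeR). Controls 1 and 4, at 141 and 132 CPM, lay beside the mutant libraries, at 122 to 135 CPM, and controls 2 and 3 stood at 192 and 185 CPM. The log2 fold change of Aldh3a2 was -0.31 over the 8 libraries, -0.53 without controls 1 and 4 and -0.40 without control 4, and it was called lower in both of those settings; it was -0.06 without controls 2 and 3.

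Aldh6a1 (chromosome 12, 84430717 to 84451004) encodes methylmalonate semialdehyde dehydrogenase, a mitochondrial enzyme of valine and pyrimidine breakdown. Its level was 49, 52.9, 51.9 and 53.9 CPM in mutant libraries 1 to 4 and 72.1, 111, 104 and 72.5 CPM in control libraries 1 to 4. The lowest control was above every mutant library, and the controls fell into a pair near 72 and a pair above 100 CPM. The gene was 1.73-fold lower, with a log2 fold change of -0.79 ± 0.14 (SE; edgeR, adjusted p = 0.0102). Without controls 2 and 3 the log2 fold change of Aldh6a1 was -0.47. Bbof1, a gene of ciliary basal bodies, overlaps it on the opposite strand, and the counts did not use strand. Bbof1 averaged 11.2 CPM in mutant and 8.06 CPM in control libraries and was not called.

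The remaining dehydrogenases of amino acid and one-carbon metabolism were not called. Aldh4a1, of proline breakdown, averaged 22.6 CPM in mutant and 27.2 CPM in control libraries, and Aldh7a1, of lysine breakdown, averaged 60.1 CPM in mutant and 73 CPM in control libraries. Aldh5a1, succinic semialdehyde dehydrogenase, averaged 8.05 CPM in mutant and 9.86 CPM in control libraries. Without controls 1 and 4 these 3 genes were called lower, with log2 fold changes of -0.38 for Aldh4a1, -0.42 for Aldh7a1 and -0.44 for Aldh5a1. In that setting 3750 genes were called higher and 3338 lower over all genes. Aldh7a1 was also called lower without control 1 (log2 fold change -0.39, adjusted p = 0.0103 by edgeR). Aldh1b1, another mitochondrial enzyme of acetaldehyde, averaged 2.88 ± 0.833 CPM in mutant and 4.52 ± 0.828 CPM in control libraries (SD, n = 4 each), with overlap between the groups and an adjusted p of 0.117 by edgeR. Aldh18a1, which makes the precursor of proline, had 28.8, 24.3, 20.1 and 19.9 CPM in mutant and 21.5, 15.9, 16.2 and 16.2 CPM in control libraries 1 to 4. Control 1 lay above 2 of the mutant libraries, and the log2 fold change, 0.41 over the 8 libraries, was 0.53 without it, when the gene was called higher. The formyltetrahydrofolate dehydrogenases Aldh1l1 and Aldh1l2 had log2 fold changes of -0.17 ± 0.18 and 0.81 ± 0.34 (SE). For Aldh1l2 the largest-to-smallest ratio within the mutant libraries was 3.18, from 1.68 to 5.34 CPM, and the log2 fold change was 0.41 without mutant library 4.

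Aldh9a1, which acts in carnitine synthesis, Aldh3b1 and Aldh16a1 averaged 47.1, 89.4 and 41.3 CPM in mutant libraries and 43.7, 91.8 and 36.8 CPM in control libraries. Aldh16a1 was the member without overlap that missed the threshold, with 40.0 to 42.3 CPM in mutant and 35.6 to 38.1 CPM in control libraries and an adjusted p of 0.120 by edgeR. Pih1d1 overlaps it on the opposite strand. Aldh3b2 averaged 0.542 CPM in mutant and 0.460 CPM in control libraries, close to the floor.

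**Figure D2:**
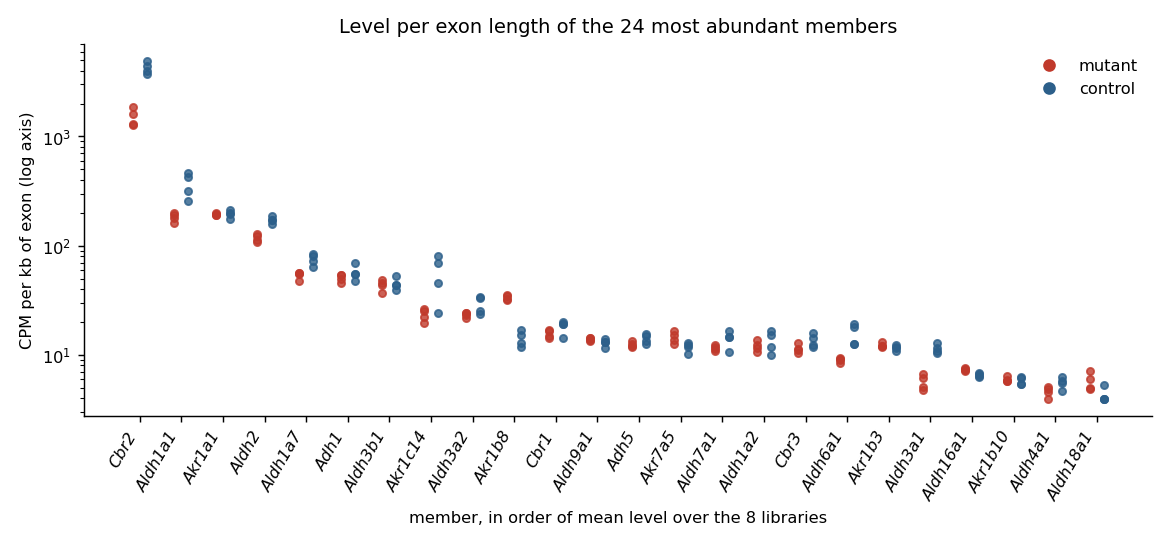
Level per exon length (CPM per kb, log axis) of the 24 most abundant members in the mutant and control libraries, ordered by the mean over the 8 libraries. Cbr2 is highest in every library, at 1267 to 1846 CPM per kb in mutant and 3756 to 4921 CPM per kb in control libraries.

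On the scale of CPM per kb, Akr1a1, Aldh1a1 and Aldh2 followed Cbr2. Akr1a1 had 194 ± 4.16 CPM per kb in mutant and 196 ± 15.8 CPM per kb in control libraries, Aldh1a1 had 183 ± 15.4 and 364 ± 93.3 CPM per kb in mutant and control libraries, and Aldh2 had 117 ± 8.29 and 172 ± 11.7 CPM per kb in mutant and control libraries (SD, n = 4 each). Aldh1a1 thus lay above Akr1a1 in control libraries, at 258 to 459 against 175 to 213 CPM per kb, while in mutant libraries their ranges overlapped, at 162 to 197 against 190.0 to 199.6 CPM per kb. Aldh1a7, Adh1 and Aldh3b1 came next, and Aldh1a7 and Adh1 overlapped in both groups. Akr1b8 had rank 10, with 33.6 ± 1.69 CPM per kb in mutant and 14.2 ± 2.38 CPM per kb in control libraries (SD, n = 4 each). It stood above Akr1c14 and Aldh3a2 in mutant libraries and below both in control libraries.

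Akr1b8 (chromosome 6, 34354119 to 34368463), the member called higher, encodes an aldose reductase-like enzyme of lipid-derived aldehydes and retinal. Its level was 51.9, 48.7, 47.7 and 53 CPM in mutant libraries 1 to 4, against 25.5, 19.1, 17.6 and 22.6 CPM in control libraries 1 to 4. All mutant libraries were above all controls, and control 1 was the highest control. The gene was 2.37-fold higher, with a log2 fold change of 1.24 ± 0.11 (SE; edgeR, adjusted p = 0.00025).

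Akr1b8 lies in a run of 4 Akr1b genes that spans 121 kb of chromosome 6. The other 3 were not called. Akr1b3, aldose reductase, which converts glucose to sorbitol, averaged 103 ± 4.92 CPM in mutant and 98 ± 5.34 CPM in control libraries, and Akr1b10 averaged 20.9 ± 1.08 and 20.5 ± 1.58 CPM in mutant and control libraries (SD, n = 4 each). Their ratios of mutant to control had 95% intervals from 0.951 to 1.17 and from 0.898 to 1.17, both below that of Akr1b8, from 1.98 to 2.82. Akr1b7, known from the vas deferens and adrenal gland, was scarce, at 1.08 CPM in mutant and 1.34 CPM in control libraries. Coding sequences of Akr1b8 were 84.8% identical to Akr1b7 and 85.1% to Akr1b10, with longest identical runs of 52 and 80 bases.

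Akr1c14 (chromosome 13, 4049011 to 4090688) encodes a hydroxysteroid dehydrogenase that reduces steroid hormones. It had 81.7, 85.9, 63.7 and 71.7 CPM in mutant libraries 1 to 4, against 147, 260.3, 225 and 78.1 CPM in control libraries 1 to 4. Control 4 fell within the range of the mutant libraries, and the other 3 controls were above all of them. The gene was 2.34-fold lower, with a log2 fold change of -1.23 ± 0.31 (SE; edgeR, adjusted p = 0.0453). Leaving out 1 mutant library, control 2 or control 3 ended this call, with an adjusted p of up to 0.117, and without controls 2 and 3 together the log2 fold change was -0.57 (adjusted p = 0.268 by edgeR). The call was also lost with limma-voom (adjusted p = 0.0683) and with edgeR without a filter on low counts (adjusted p = 0.177).

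Akr1c14 is the first of 9 members on 560 kb of chromosome 13, of which 5 were tested and only Akr1c14 was called. Akr1c13, Akr1c19 and Akr1c12 averaged 6.68, 4.04 and 0.995 CPM in mutant and 6.86, 5.21 and 0.816 CPM in control libraries. Akr1e1 averaged 16.9 CPM in mutant and 17.6 CPM in control libraries. Akr1c13 and Akr1c12 were 96.2% identical over their coding sequence, with an identical run of 228 bases, so their levels are uncertain. Akr1c18, which inactivates progesterone, did not pass the filter.

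Akr1a1, aldehyde reductase, which also acts in ascorbate synthesis in mice, was the most abundant Akr gene and had a 95% interval of the ratio from 0.876 to 1.11. Akr7a5, which reduces succinic semialdehyde and aflatoxin dialdehyde, averaged 26 ± 3.1 CPM in mutant and 21.1 ± 2.09 CPM in control libraries (SD, n = 4 each), with overlap between the groups and an adjusted p of 0.118 by edgeR.

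The 6 alcohol dehydrogenases lie together on 238 kb of chromosome 3, and 3 were tested and none was called in the edgeR test, with Adh7 alone at an unadjusted p under 0.05. Adh1, the class of ethanol and retinol oxidation, averaged 113 ± 9.15 CPM in mutant and 126 ± 19.7 CPM in control libraries (SD, n = 4 each). Adh5, the glutathione-dependent formaldehyde dehydrogenase, averaged 67.3 ± 3.63 CPM in mutant and 76.6 ± 7.63 CPM in control libraries (SD, n = 4 each). Adh7, which oxidises retinol in epithelia, had 8.06, 9, 7.56 and 11.8 CPM in mutant libraries 1 to 4 and 10.3, 14.7, 15.7 and 13.6 CPM in control libraries 1 to 4. Mutant library 4 was above control 1, and the other 3 mutant libraries were below all controls. Its log2 fold change was -0.57 ± 0.18 (SE; edgeR, adjusted p = 0.0802), and DESeq2, the other count test, called it lower (adjusted p = 0.0253). It was also called lower by edgeR without a filter on low counts (adjusted p = 0.0485), without mutant library 4 (0.0428), without control 1 (0.0237) and without controls 1 and 4 (0.00551). Adh5 was called lower without controls 1 and 4 (log2 fold change -0.30, adjusted p = 0.0041 by edgeR), a setting in which calls over all genes also rose.

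**Figure D3:**
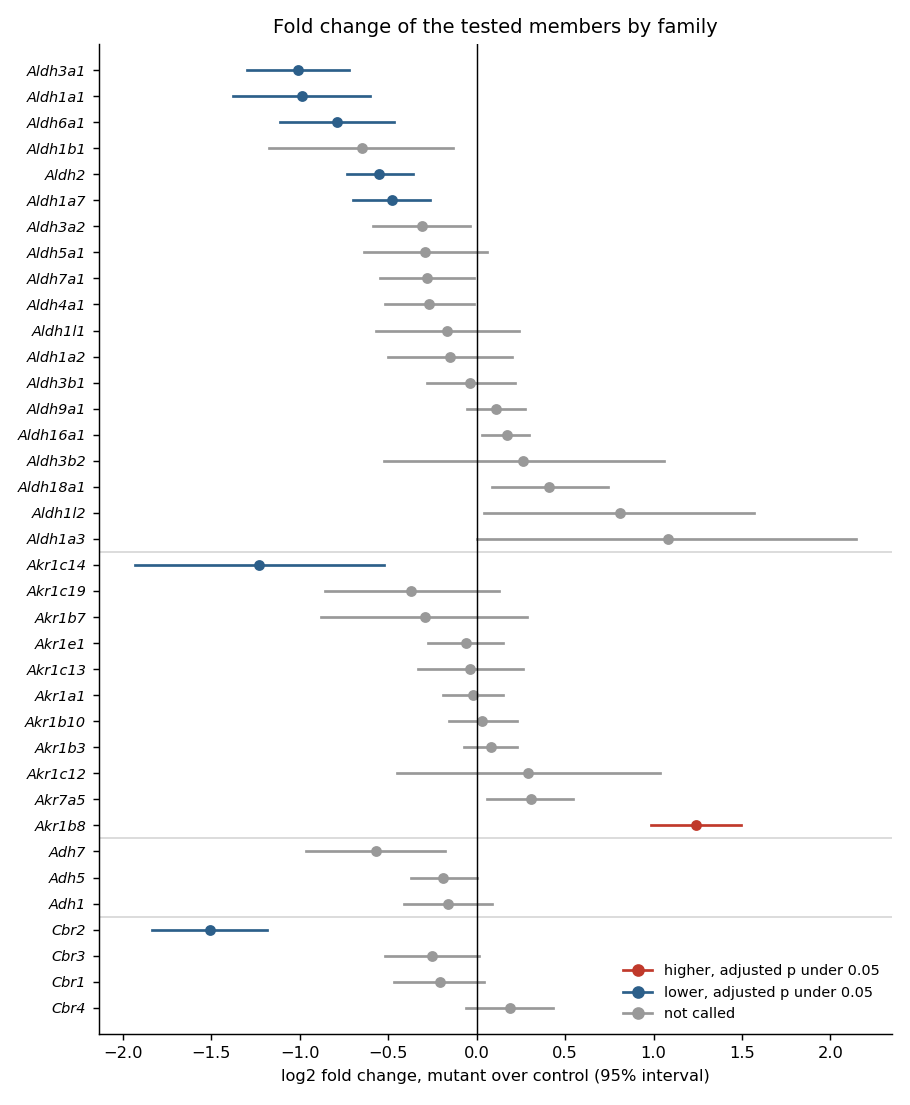
Log2 fold change of mutant over control libraries (horizontal axis) of the 37 tested members, grouped by family, with 95% intervals from edgeR's quasi-likelihood fit. The 7 members called lower lie between -1.51 and -0.48, Akr1b8 at 1.24 is the member called higher, and grey members were not called.

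The remaining 11 members did not pass the filter, with at most 35 counts in all 8 libraries together. Akr1c20 and Akr1d1 had 0 counts in every library, which allows up to 3 counts or 0.138 to 0.199 CPM per library without the scaling factor. The other 9 were Adh4, Adh6a, Adh6b, Akr1c6, Akr1c18, Akr1c21, Akr1cl, Aldh3b3 and Aldh8a1, several of which are known as liver or steroid enzymes. No difference was detectable for them at this depth.

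Summed by family, the Cbr genes held 1794, 2186, 1741 and 2517 CPM in mutant and 5046, 6610.3, 5991 and 5362 CPM in control libraries 1 to 4. The Aldh genes held 2137, 2298, 1970.0 and 2252 CPM in mutant and 3059, 4038, 3889 and 2886 CPM in control libraries 1 to 4. Neither sum overlapped between the groups, and each followed the genes that dominate it, Cbr2 in the first, Aldh1a1 and Aldh2 in the second. The Akr and Adh sums overlapped, with 839.5 ± 26.2 and 189.7 ± 8.41 CPM in mutant and 910.2 ± 99.2 and 217 ± 23.5 CPM in control libraries (SD, n = 4 each). These sums are descriptions of chosen members and were not tested.

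Ratios between related members within a library do not depend on scaling, and 12 pairs of relatives had both genes tested. In 6 pairs the groups did not overlap, and each of these 6 holds a member that was called, so the count is not independent of those calls. Each of these had an exact two-sided permutation p of 0.0286, the smallest that 70 arrangements allow, and an adjusted p of 0.0571 over the 12 pairs, so that no pair passed a threshold of 0.05. The log2 ratio of Akr1b8 to Akr1b3 was -0.97, -1.05, -1.07 and -1.06 in mutant libraries 1 to 4 and -1.84, -2.38, -2.45 and -2.20 in control libraries 1 to 4. That of Cbr2 to Cbr1 was 5.52, 5.60, 5.54 and 5.84 in mutant and 7.09, 7.05, 6.87 and 6.75 in control libraries 1 to 4. For both pairs the groups were apart, and the Akr1b8 to Akr1b3 ratio spread less among the mutant than among the control libraries.

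The log2 ratio of Aldh1a1 to Aldh1a7 was 3.02 ± 0.04 in mutant and 3.50 ± 0.21 in control libraries, and that of Aldh3a1 to Aldh3a2 was -3.58 ± 0.23 in mutant and -2.85 ± 0.16 in control libraries (SD, n = 4 each). The ratio of Aldh1a1 to Aldh1a3 differed by -1.88 and that of Akr1b8 to Akr1b7 by 1.53, mutant minus control, on the log2 scale. The groups overlapped for Aldh1a1 to Aldh2, Aldh3b2 to Aldh3b1, Aldh1l2 to Aldh1l1, Adh7 to Adh1, Adh1 to Adh5 and Cbr3 to Cbr1. For Cbr3 to Cbr1 the difference was -0.05, and for Adh1 to Adh5 it was 0.03.

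**Figure D4:**
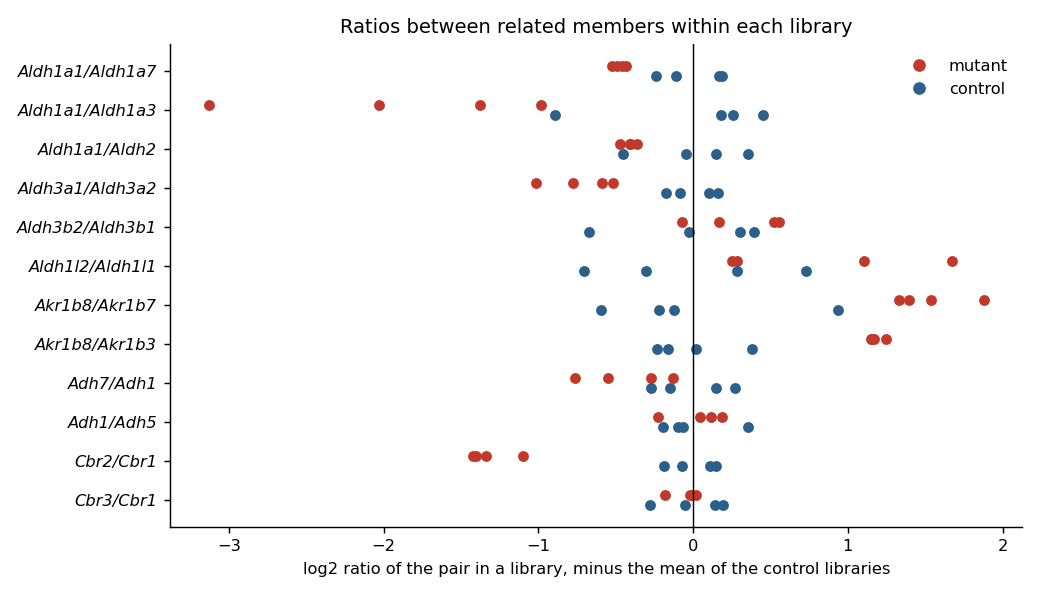
Log2 ratio of 12 pairs of related members in each mutant and control library, drawn relative to the mean of the control libraries of that pair (horizontal axis). Points are libraries; the groups are apart for 6 pairs, among them Cbr2 to Cbr1 and Akr1b8 to Akr1b3.

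Many markers of club cells moved with the lower members. Of 24 club cell markers outside the 4 families, 13 were lower and 3 higher in mutant libraries in the edgeR test. The rest were not called, and over all tested genes 2.36% were lower and 5.45% higher. The summed level of the 24 markers was 11180.2 to 13635 CPM in mutant and 24054 to 26654 CPM in control libraries. This sum largely followed Scgb1a1 and Cyp2f2, its most abundant genes in control libraries. Scgb1a1 averaged 4177 ± 307 CPM in mutant and 13403 ± 554 CPM in control libraries, and the club cell monooxygenase gene Cyp2f2 averaged 799 ± 132 CPM in mutant and 2840.2 ± 328 CPM in control libraries (SD, n = 4 each). The ratio of mutant to control of Cbr2, with a 95% interval from 0.280 to 0.440, overlapped those of Scgb1a1, from 0.270 to 0.360, and Cyp2f2, from 0.227 to 0.348. The intervals of Aldh1a1, from 0.385 to 0.657, and Aldh2, from 0.601 to 0.780, lay above those of Scgb1a1 and Cyp2f2. Other club cell markers ranged widely. The intervals of Cyp4b1, from 0.336 to 0.658, and Cckar, from 0.584 to 0.798, overlapped those of both Aldh genes. Pon1 lay lower, from 0.0863 to 0.121. Higher in mutant libraries were Muc5b, from 3.05 to 5.94, Reg3g, from 3.83 to 7.73, and Sftpd, from 1.28 to 1.86. The part of club cell number in these results was not tested.

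Markers of other cell types also differed between the groups. The counts of called markers stand beside shares of 5.45% higher and 2.36% lower over all tested genes. Epcam averaged 103 ± 6.79 CPM in mutant and 67.1 ± 6.91 CPM in control libraries, and the endothelial gene Pecam1 averaged 842 ± 57.6 CPM in mutant and 1173 ± 183 CPM in control libraries (SD, n = 4 each). Of 10 general epithelial markers 7 were higher in mutant libraries, and their summed level was 2015 to 2285 CPM in mutant and 1179 to 1504 CPM in control libraries. Of 19 ciliated cell markers 11 were higher and 0 lower, and of 11 tested goblet cell markers 8 were higher and 0 lower. Of 14 endothelial markers 5 were lower and 0 higher. Summed levels of the ciliated list were 1012 to 1304 CPM in mutant and 749 to 938 CPM in control libraries, and those of the goblet list were 769 to 1436 CPM in mutant and 214 to 540.2 CPM in control libraries. The goblet and club cell lists share Muc5b and Tff2, so their counts are not independent. Muc5b, counted as higher on both, stood at 506 to 839.6 CPM in mutant and 109 to 202 CPM in control libraries. Of 14 macrophage, monocyte and neutrophil markers 4 were higher and 0 lower, with summed levels of 1202 to 1476 CPM in mutant and 762 to 1061 CPM in control libraries. Of 14 alveolar type II markers 4 were higher and 0 lower, of 12 alveolar type I markers 0 were higher and 1 lower, and of 14 fibroblast and smooth muscle markers 2 were higher and 2 lower. Of 6 mesothelial markers 1 was higher and 0 lower, with summed levels of 654 to 749 CPM in mutant and 309 to 599.9 CPM in control libraries. None of 10 lymphocyte and 6 tested basal cell markers was called in the edgeR test. The part of these cell types in the change of Akr1b8 or any other member was not tested.

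Enzymes that make or clear aldehydes and related lipids outside the 4 families were counted as well. On a list of 24 amine, aldehyde and lipid enzymes, 6 of 23 tested were lower and 1 was higher in mutant libraries, with a median log2 fold change of -0.09. The shares over all tested genes were 2.36% lower and 5.45% higher. The aldehyde oxidase genes Aox3 and Aox1 averaged 71.8 ± 6.06 and 32 ± 2.3 CPM in mutant and 182 ± 30.7 and 59.2 ± 5.21 CPM in control libraries (SD, n = 4 each). The epoxide hydrolase gene Ephx1 averaged 164 CPM in mutant and 278 CPM in control libraries, and the diamine oxidase gene Aoc1, the 1 that was higher, averaged 21 CPM in mutant and 7.83 CPM in control libraries. Their adjusted p lay between 0.00025 and 0.0138 (edgeR).

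Of 31 tested short-chain and quinone reductases outside the families, 1 was higher and 1 lower. These counts are near the shares over all tested genes, 5.45% higher and 2.36% lower. Hsd11b2, which inactivates glucocorticoids, averaged 7.58 ± 2.27 CPM in mutant and 1.89 ± 0.45 CPM in control libraries, and Dhrs7c averaged 1.63 ± 0.163 CPM in mutant and 3.40 ± 0.288 CPM in control libraries (SD, n = 4 each). Of 32 tested genes driven by NRF2, the transcription factor of the antioxidant response, 2 were higher and 5 lower, with a median log2 fold change of -0.00. The higher count is near the share over all tested genes. The glutathione synthesis gene Gclc averaged 412 ± 86.2 CPM in mutant and 191 ± 22 CPM in control libraries, and catalase (Cat) averaged 177 CPM in mutant and 285 CPM in control libraries. The glutathione peroxidase gene Gpx2 averaged 42.3 CPM in mutant and 26.5 CPM in control libraries, and the glutathione transferase gene Gsta2 averaged 0.626 CPM in mutant and 5.09 CPM in control libraries. Gsta4, Gstm1 and Ephx1 were the other lower genes. Gsta4 is also on the club cell list, and Ephx1 is also on the list of amine, aldehyde and lipid enzymes.

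**Figure D5:**
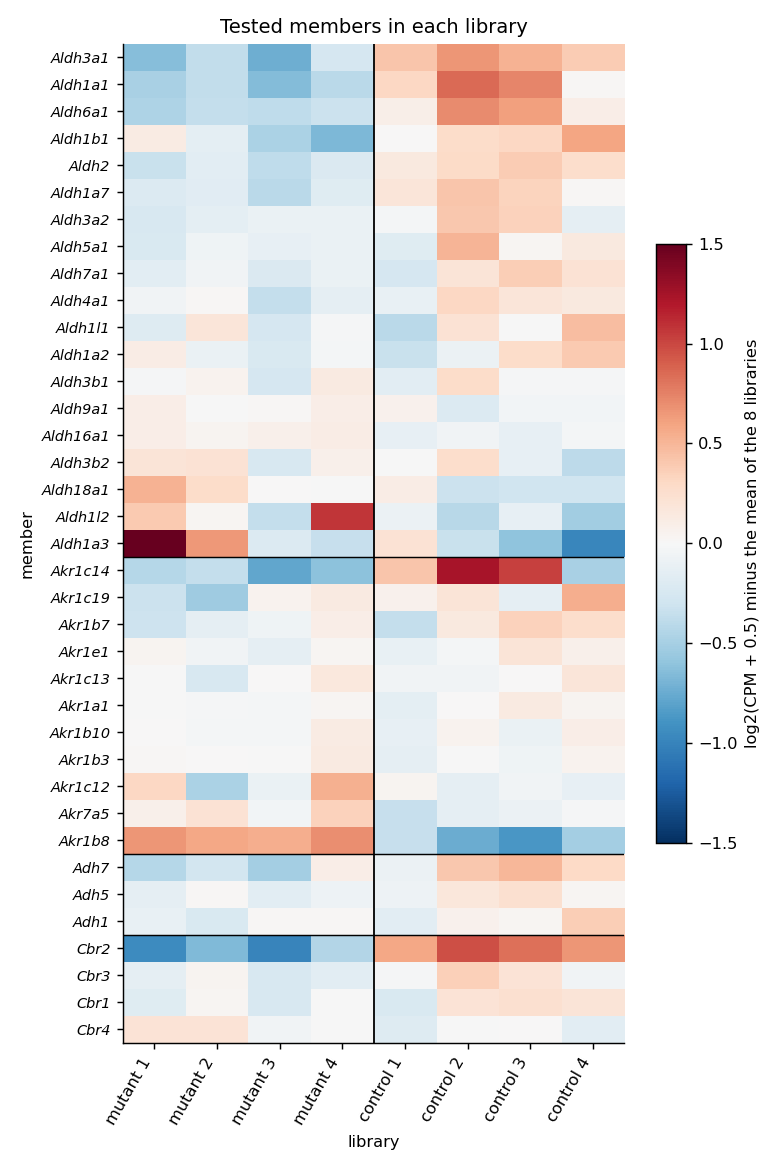
Level of the 37 tested members in each library, as log2(CPM + 0.5) minus the mean of that gene over the 8 libraries (colour), with mutant libraries on the left and families separated by lines. Controls 2 and 3 are the darkest in red for Aldh1a1, Aldh6a1 and Akr1c14, with control 4 near the mutant libraries for Akr1c14.

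The control libraries differed among themselves in these genes. The median SD of log2 CPM over the tested members was 0.14 in mutant and 0.21 in control libraries, and 24 of 37 members varied more among the controls. Control 1 was the lowest control for 22 of the 37 tested members. Among the 7 lower members the lowest control was control 4 for Akr1c14, Aldh1a1, Aldh1a7 and Aldh3a1 and control 1 for Aldh2, Aldh6a1 and Cbr2. Controls 2 and 3 were the lowest for none of the 7. Markers of other cells also split the controls: the neutrophil gene Csf3r stood at 29.2, 7.85, 2.59 and 28.1 CPM and the collagen gene Col1a1 at 306, 118, 137 and 449 CPM in control libraries 1 to 4, while the leukocyte gene Ptprc stood at 204, 75.6, 64.1 and 101 CPM. Pecam1 split the controls the other way, at 1005, 1287, 1369.5 and 1030.2 CPM in control libraries 1 to 4. The summed macrophage, monocyte and neutrophil list varied less in proportion than Csf3r, from 762 to 1061 CPM in control libraries. In mutant libraries Csf3r ranged from 21.6 to 26.3 CPM, Col1a1 from 406 to 521 CPM and Ptprc from 93.2 to 114 CPM. Their part in the results was not tested.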

How the data were processed

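The deposited table gives unnormalised counts of fragments for each gene in the 8 libraries. The authors counted, per the file headers, with featureCounts 1.6.2 against GENCODE M25 on GRCm38, without strand, without reads mapping to several places and without reads over more than 1 gene. Relatives of near-identical sequence therefore lose shared reads, and overlapping genes lose reads. STAR, Bowtie2 and Cufflinks are named, with no role given, in the submitters' processing notes. Read length is not given in the sources used here. Exon length per gene, another column of the deposited table, gave CPM per kb.

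Symbols and biotypes came from GENCODE M21, which matched 99.53% of identifiers; the pseudogene Adh6-ps1 was left out. Low counts were removed by filterByExpr with a minimum count of 10 and a minimum total of 15, and libraries were scaled with TMM and compared with edgeR 4.0.16 (R 4.3.3; quasi-likelihood, robust, group as the only term), with Benjamini-Hochberg adjustment over all 16964 genes. SE came from the F statistic. The edgeR procedure was run on simulated counts with known fold changes. These were drawn without a split among the controls, so that run does not cover the differences between the real controls. Alternatives used DESeq2 1.42.0, limma 3.58.1 (voom), other scaling and filters, GC trends, a replicate block and fewer libraries. Pair ratios had 0.5 counts added and an exact permutation test (scipy 1.17.1).

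The rule for named genes took the called members, the 10 most abundant per kb, members of the listed pairs, members that failed the filter, 4 reference genes, and up to 4 called genes of each pathway list by adjusted p; the remaining members were added so that all are accounted for, and further called genes of a list, and Cyp2f2, Bbof1, Pih1d1, Csf3r, Col1a1 and Ptprc, were named after their values were seen. Members and lists were chosen with earlier results of these data known. No 2 libraries of a group agreed within sampling noise: chi-square per gene was 4.89 or more.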

Additional observations from a re-analysis of the deposited data

Results flagged for a closer look

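In 4 of 74 groups of 4 libraries (37 tested members in mutant and control libraries), 1 library stood apart beyond the 95% limit of Dixon's ratio, the gap to the nearest library divided by the range of the group. Chance flags about 1 group in 20. For Akr1b3, mutant library 4 had 111 CPM and the other mutant libraries at most 102 CPM (ratio 0.844). For Aldh1a7, mutant library 3 had 99 CPM and the others 114 to 116 CPM (0.856). For Cbr1, control library 1 had 36.5 CPM and the others 49 to 50.6 CPM (0.892). For Aldh18a1, control library 1 had 21.5 CPM and the other controls 15.9 to 16.2 CPM (0.950). Without control 1, Cbr1 was called lower (log2 fold change -0.31) and Aldh18a1 higher (0.53).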

How the results depend on the processing

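The counts of called members were 1 higher and 7 lower in the main comparison. With the replicate block, with or without the GC trend removed, 3 members were higher, Aldh1a3 and Aldh18a1 being added, and Akr1c14 lost its call. Without controls 1 and 4, 2 members were higher and 15 lower. When 1 library was left out, 1 to 2 members were higher, 5 to 10 lower and 6 to 7 pairs of relatives without overlap. The pair count could not fall below 6, because leaving out a library cannot make separate groups overlap. Over all genes, 924 were higher and 401 lower; leaving out 1 library gave 515 to 1517 higher and 146 to 1117 lower. Without controls 1 and 4 the counts were 3750 and 3338, without controls 2 and 3 the lower count was 223, and DESeq2 gave 939 lower. The share of higher genes among all calls was 69.7%, 58.7% with DESeq2, 78.4% with scaling by library size, 52.9% without controls 1 and 4 and 57.6% to 79.4% without 1 library. The causes were not tested. No label says that replicate numbers pair the libraries. Same-numbered libraries correlated at 0.02, 0.15, -0.13 and 0.16 in their deviations from the group means, and the others at -0.17 to 0.16. With 4 libraries per group such deviations are tied to each other, so these values cannot exclude a pairing. Log2 fold changes near 0 changed sign in members that were never called in those settings: Akr1a1 to 0.04 with scaling by library size, 0.02 with the GC trend removed or with it and the block, 0.05 without controls 2 and 3 and -0.07 to 0.02 without 1 library; Akr1c13 to 0.02, 0.01 and 0.01 in the first 3 settings, 0.01 without controls 1 and 4 and -0.11 to 0.04 without 1 library; Aldh3b1 to 0.02 with scaling by library size, 0.08 without controls 2 and 3 and -0.09 to 0.05 without 1 library; Akr1b10 to -0.00 without mutant library 4, with a range up to 0.07 without 1 library, and Aldh3b2 to -0.00 without controls 1 and 4. Depth limits the 11 untested members.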
